A study of Homo sapiens with 37 samples.

Results

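The comparison described here is the RNA bound to streptavidin beads after proximity labelling by APEX-eIF4A in heat-shocked cells at the time point labelled T20, set against the total RNA of the same kind of cells. It rests on 4 samples of the 37 in the series, chosen by their titles: 2 T20 pulldowns and 2 T20 inputs. All 4 came from HEK293T cells, a human embryonic kidney line, carrying eIF4A fused to APEX. Cells were given 500 µM biotin-phenol for 30 min and then 1 mM H2O2 for 1 min, RNA was extracted with TRIzol, and libraries were made with a directional kit. The same construct was present in the other samples of the stress table, which holds 17 libraries: T20 (heat shock, 2 pulldowns and 2 inputs), T4 (heat shock, 1 of each), hippuristanol (2 of each), DMSO (2 pulldowns and 1 input) and T0 without stress (2 of each). A separate naive table holds 2 pulldowns and 2 inputs of unstressed APEX-eIF4A cells. The labels used here give neither the unit of T nor the temperature, and the hippuristanol inputs carry a heat shock label although their titles name the inhibitor. Since no label says whether replicates were separate cultures, the p-values reflect library-to-library spread, which may be technical.

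eIF4A is the RNA helicase of eIF4F, the complex that binds the mRNA cap and prepares the 5′ end of a message for the small ribosomal subunit. APEX is a peroxidase that, given H2O2, turns biotin-phenol into a short-lived radical that marks RNA and protein close to the enzyme. A pulldown over its input therefore ranks RNAs by labelling near the fusion protein, together with whatever binds beads without being labelled. Heat shock lowers translation initiation in mammalian cells while transcripts of chaperone genes accumulate, and untranslated messages with initiation factors can gather in stress granules. Hippuristanol inhibits eIF4A by blocking its binding to RNA.

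The deposited tables give counts per versioned Ensembl gene ID and no gene names, and 0 of the 60483 IDs could be matched to a symbol. RNAs are therefore described by level, fold and behaviour across libraries, and 4 IDs are named. For the same reason the cell line and the heat shock label were not checked against marker or chaperone genes.

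Pulldown libraries were shallower than inputs throughout the stress table. The T20 pulldowns held 906395 and 1171918 counts over 13289 and 14148 IDs, against 4540426 and 5687572 counts over 26045 and 27549 IDs in the T20 inputs. Totals ran from 707356 to 1221213 in the 9 pulldowns and from 4540426 to 7782943 in the 8 inputs. The second T0 pulldown stood apart by its scaling factor of 0.593, the lowest of the 17, and the second T0 input by its factor of 0.856, the lowest among inputs. These 2 libraries enter the T0 values given below and the common estimate of spread.

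At T20, 62 of 16678 tested IDs differed between pulldown and input (edgeR quasi-likelihood test, Benjamini-Hochberg adjusted p under 0.05), which is 0.372%. Of these, 42 were higher in the pulldown (0.252%) and 20 were lower (0.12%). At an unadjusted p under 0.05 the order of the directions was turned, with 464 IDs higher (2.78%) and 1730 lower (10.4%). The median log2 fold change over all tested IDs was -0.29 (-0.55 with plain library size), so values are relative to that shift as much as to 0. Pulldown and input libraries did not overlap in 42 of the 42 higher and 20 of the 20 lower IDs, but the same held for 53.4% of all tested IDs. T0 gave 60 calls (0.36%), 50 higher (0.3%) and 10 lower (0.06%). Hippuristanol gave 42 (0.252%), 41 higher (0.246%) and 1 lower (0.006%). The share of higher IDs among the T20 calls depended on scaling and on other settings. TMM gave 67.7%, plain library size 41.1% and TMM computed without the 10 IDs of highest share 81.8%. With TMM kept, the share was 88.9% when only the T20 libraries were fitted, 53.8% without a count filter and 31.4% with same-numbered libraries blocked. DESeq2, which differs in the test and in the IDs tested as well as in scaling, gave 39.2%.

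**Figure D1:**
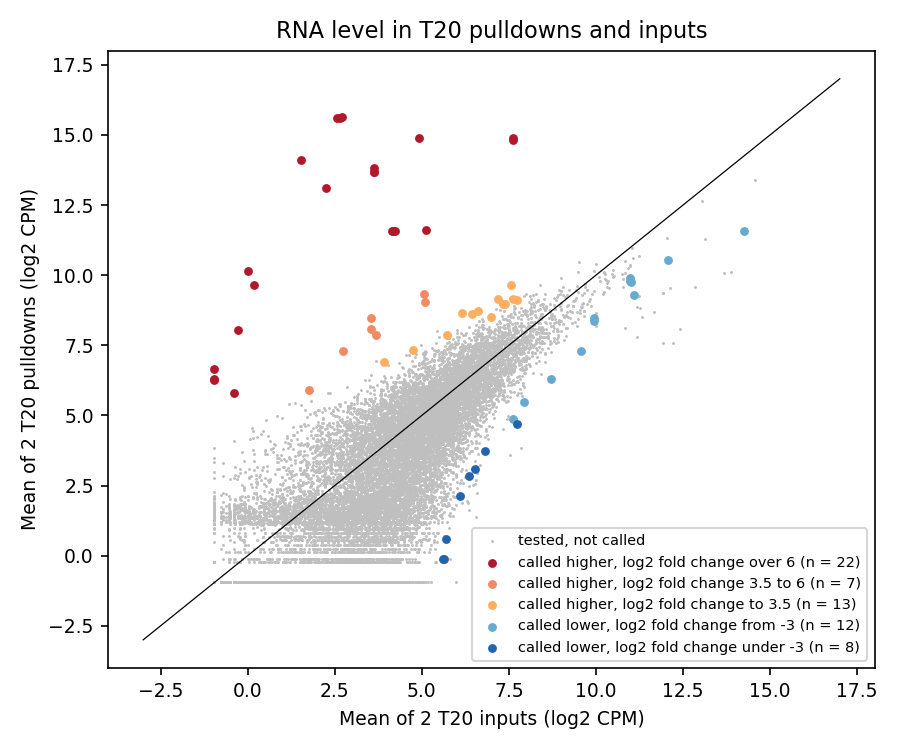
Mean level in the 2 T20 pulldowns (vertical axis, log2 CPM) against the mean level in the 2 T20 inputs (horizontal axis, log2 CPM) for the 16678 tested IDs; the line marks equal levels. The 42 called higher fall into 3 bands above the cloud, of which the upper 22 have inputs near or below the middle of the range, and the 20 called lower lie along its lower edge.

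The 42 higher IDs formed 3 bands by size, separated after their values were seen. The upper band held 22 IDs with a log2 fold change of 6.51 to 13.16 and a median of 10.12. A middle band of 7 IDs ran from 3.99 to 4.97 with a median of 4.34, and the remaining 13 IDs ran from 1.36 to 3.002 with a median of 2.08. The gaps between the bands lay at 3.002 to 3.99 and at 4.97 to 6.51. In the upper band, 3 IDs had no count in either T20 input, so their fold is a lower bound. Against a floor of 3 counts over both inputs they were at least 303-fold to 434-fold higher, and with those IDs at their bound the median of the band was 9.75.

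Of the 3 bands of higher IDs, the upper one held most of the counts. It took 30.5% and 32.7% of the counts of the T20 pulldowns, against 0.069% and 0.063% of the T20 inputs. The middle band took 0.241% and 0.199% of the pulldowns, against 0.0135% and 0.0120% of the inputs, and the lower band took 0.571% and 0.527%, against 0.184% and 0.173%. With 2 libraries a side, an exact permutation test on such shares cannot go below a p of 0.333, so they are given without a test. The 95% Wilson limits of these shares lay within 0.116 percentage points and cover counting error only, since reads without molecular identifiers are not independent molecules. A total of 371 and 315 IDs accounted for 50% of the counts in the T20 pulldowns, against 744 and 1054 IDs in the T20 inputs.

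Some of the higher IDs had nearly the same counts in every pulldown, and reads of near-identical gene copies can be split between IDs. Taking IDs whose counts lay within 10% of each other in each of the 9 pulldowns, 10 of the 42 fell into 4 families, leaving 36 distinct profiles. A family of 3 IDs with log2 fold changes of 13.07 to 13.16 took 14.2% and 15.2% of the T20 pulldown counts. Another family of 3 IDs, at 7.39 to 7.47, took 0.962% and 0.839%. A pair at 7.24 to 7.29 took 5.08% and 6.65%, and a pair at 10.05 took 2.43% and 2.69%. Their sequences were not compared, so values of single members of a family are uncertain, and 42 may overstate the number of separate RNAs. None of the 20 lower IDs belonged to such a family.

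ENSG00000277644.1 had the largest increase among the IDs that met the level and overlap criteria. It had 42566 and 58873 counts in the T20 pulldowns, against 25 and 40 counts in the T20 inputs. Both pulldowns were far above both inputs. Its level was 49843 ± 4602 CPM in pulldowns and 5.41 ± 0.63 CPM in inputs (SD, n = 2 each), with a log2 fold change of 13.16 ± 0.47 (SE; edgeR adjusted p = 1.255e-14). It belongs to the 3-ID family with the highest share, so its reads may be shared. The fold was 12.53 at T0 and 12.20 under hippuristanol, and the T20 minus T0 difference of 0.63 ± 0.41 (SE) had an edgeR adjusted p of 0.7527. In inputs, T20 over T0 was -1.85 ± 0.31 (SE; edgeR adjusted p = 0.02643), while T20 over T0 in pulldowns was -1.22 ± 0.29 (SE; edgeR adjusted p = 0.08033).

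ENSG00000210082.2 had the highest pulldown counts among called IDs outside the families. It had 29332 and 32444 counts in the T20 pulldowns, against 157 and 196 in the T20 inputs. The ranges were far apart, at 30683 ± 2010 CPM in pulldowns and 29.96 ± 1.77 CPM in inputs (SD, n = 2 each). The log2 fold change was 9.999 ± 0.46 (SE; edgeR adjusted p = 1.684e-12), beside 10.90 at T0 and 9.91 under hippuristanol. The T20 pulldowns, at 32104 and 29261 CPM, lay below the T0 pulldowns at 40347 and 35602 CPM, but the input-adjusted difference of -0.90 ± 0.44 (SE) had an edgeR adjusted p of 0.6811.

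**Figure D2:**
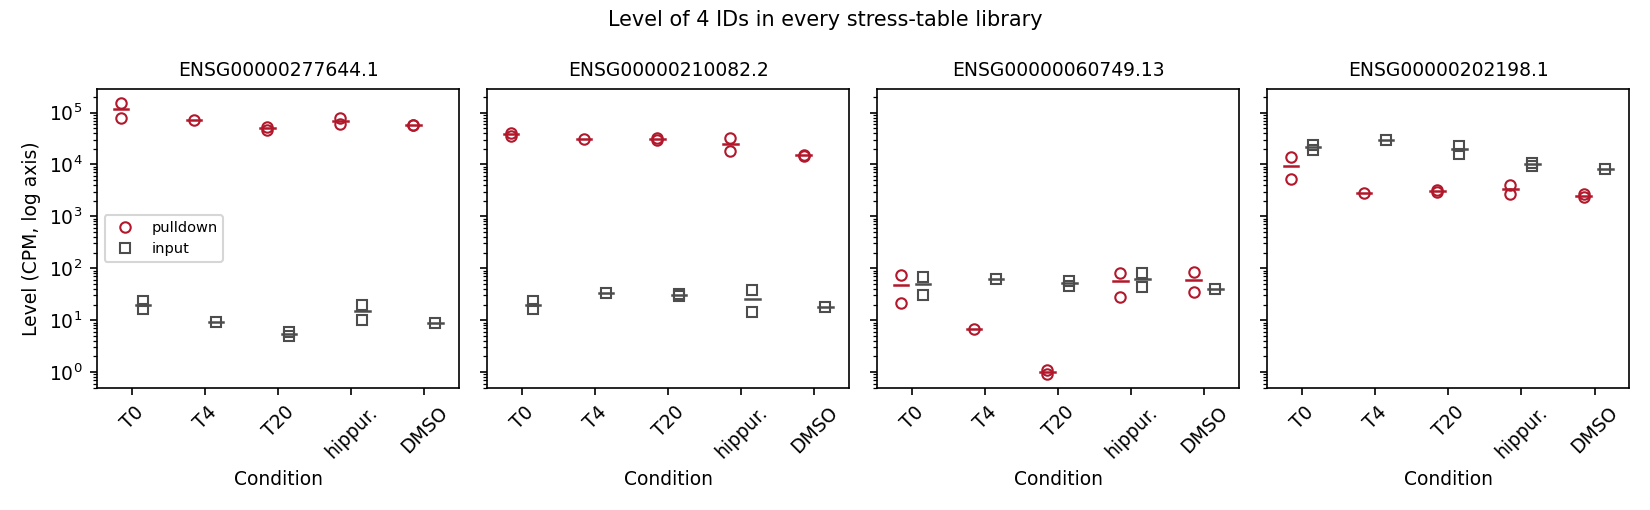
Level of the 4 named IDs (vertical axis, CPM on a log scale) in each stress-table library, by condition; circles are pulldowns, squares inputs and bars group means. In ENSG00000277644.1 and ENSG00000210082.2 pulldowns lie far above inputs in each condition, and in ENSG00000060749.13 the T20 pulldowns, at 1.09 and 0.902 CPM, are the lowest points. ENSG00000060749.13 was selected by its T20 values, so nothing is read from that position.

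The upper band was also high without heat shock. Of the 22 IDs, 22 were also called higher at T0 and under hippuristanol, with median log2 fold changes of 10.12 at T20, 10.79 at T0 and 10.33 under hippuristanol (9.75, 10.65 and 10.08 with IDs lacking input counts at their bound). The T20 minus T0 difference was below 0 in 17 of the 22, with 4 at an unadjusted p under 0.05 and 0 called. Without the second T0 pulldown it was below 0 in 11 of 22, with a median of -0.09 in place of -0.65. The band took 30.5% and 32.7% of the T20 pulldowns, against 39.5% of the single T4 pulldown, 41.8% and 36.7% of the hippuristanol, 32.9% and 34.01% of the DMSO and 42.0% and 58.1% of the T0 pulldowns. The T20 values were the lowest of the 9. T20 over T0 in inputs was called lower for 4 IDs, and all 4 lay in the upper band, at T20 folds of 12.83 to 13.16. They include ENSG00000277644.1 of the 3-ID family, so they may not be 4 separate RNAs. All 4 families of near-equal counts lay in this band, so counts out of 22 may overstate the number of separate RNAs.

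The middle band was also called in every condition tested, and its folds at T20 lay below those at T0 in 7 of 7, in 6 of 7 when scaled by library size and in 4 of 7 without the first T0 pulldown. The medians were 4.34 at T20, 5.39 at T0 and 4.80 under hippuristanol, and 7 of 7 were called higher in each. The T20 minus T0 differences ran from -2.45 to -0.12 with a median of -1.14. Of these, 3 had an unadjusted p under 0.05 and 0 were called after adjustment. Against hippuristanol the differences ran from -1.21 to -0.29, below 0 in 7 of 7 (4 of 7 without the second hippuristanol pulldown), with 0 at an unadjusted p under 0.05.

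The lower band of higher IDs included those whose call was made at T20 and not at T0. Its median was 2.08 at T20, 1.19 at T0 and 1.76 under hippuristanol. Of its 13 IDs, 3 were called higher at T0 and 5 under hippuristanol, beside 0.3% and 0.246% of all tested IDs. However, 13 at T0 and 12 under hippuristanol had an unadjusted p under 0.05 in the same direction. Over all tested IDs that held for 1.86% at T0 and 2.33% under hippuristanol. The 13 were selected by a T20 test that shares its estimate of spread with these tests, so those shares are not a like comparison. The T20 minus T0 difference was above 0 in 10 of 13, with 1 at an unadjusted p under 0.05 and 0 called, so a difference between the conditions was not shown. Scaling by library size kept 2 of the 13 calls, and leaving out a single T20 library kept 0 to 3.

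The 20 lower IDs split into 8 with a log2 fold change under -3 and 12 between -2.70 and -1.09. The 8 ran from -6.56 to -3.02 with a median of -3.79. They had 1 to 18 counts in the first and 0 to 37 in the second T20 pulldown, against 202 to 893 and 367 to 1749 in the T20 inputs. The 2 lowest values rest on 1 count each over both T20 pulldowns, so their fitted size depends on the prior count. These IDs were of moderate level in total RNA and had few counts in both T20 pulldowns. At T0 the same 8 had a median of -0.18, from -1.56 to 0.19, with 0 called, and under hippuristanol a median of -0.72, with 0 called. The T20 minus T0 difference had a median of -3.68 and was below 0 at an unadjusted p under 0.05 in 8 of 8, beside 3.57% of all tested IDs. The T20 minus hippuristanol difference had a median of -3.02 and did the same in 8 of 8, beside 3.43% of all tested IDs. The 8 were selected for low T20 values, which enter both differences and pull them down, so nothing is read from these counts, and 0 of the differences passed adjustment. Leaving out a single T20 library kept 0 to 2 of the 8 calls, although the 8 values stayed below 0.

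ENSG00000060749.13 had the largest decrease among IDs that met the level and overlap criteria. It had 1 and 1 count in the T20 pulldowns, against 229 and 386 counts in the T20 inputs. In the other pulldowns it had 14 and 31 counts at T0, 5 in the T4 library, 60 and 28 under hippuristanol and 42 and 79 under DMSO, all above the T20 pulldowns. Its level was 0.998 ± 0.136 CPM in T20 pulldowns and 51.0 ± 7.78 CPM in T20 inputs (SD, n = 2 each), with a log2 fold change of -5.64 ± 1.18 (SE; edgeR adjusted p = 0.03314). Over summed counts the T20 pulldowns were 52.4-fold lower than the T20 inputs, with an exact 95% interval of 14.5 to 434 that covers counting error only. The T0 value was -0.10 and the hippuristanol value -0.17. The T20 minus T0 difference was -5.54 ± 1.45 (SE), with an unadjusted p of 0.001012 and an edgeR adjusted p of 0.6765. The ID was selected for its low T20 value, which enters these comparisons. Nothing is therefore read from T20 standing below the other conditions. The call was lost without any 1 of the 4 T20 libraries, at log2 fold changes of -5.79 to -5.47.

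The other 12 lower IDs were abundant in inputs and had smaller folds. Their input counts ran from 912 to 116506 in the first T20 input, their median fold was -1.72, and they had medians of -1.17 at T0 and -1.03 under hippuristanol. Of the 12 calls, 1 was kept without the first T20 input, 7 without the second T20 input, 1 without the first T20 pulldown, 1 without the second, and 3 with TMM computed without the 10 IDs of highest share. At T0, 10 of 12 had an unadjusted p under 0.05 in the same direction, beside 8.87% of all tested IDs, and 0 were called. Under hippuristanol 11 of 12 did, beside 3.42% of all tested IDs, and 1 was called. The 12 were selected by a T20 test that shares its estimate of spread with these tests. The shares over all tested IDs, many at low level, are therefore not a like comparison. ENSG00000202198.1 was the most abundant of the 12. It had 2659 and 3507 counts in the T20 pulldowns, against 116506 and 110710 counts in the T20 inputs, which is 0.293% and 0.299% of the pulldowns and 2.57% and 1.95% of the inputs. Its level was 3037 ± 179 CPM in pulldowns and 19687 ± 4914 CPM in inputs (SD, n = 2 each), a log2 fold change of -2.70 ± 0.33 (SE; edgeR adjusted p = 4.445e-05). The T0 value was -1.18 (edgeR adjusted p = 0.1595), where the T0 pulldowns were 5173 and 13863 CPM and lay far apart. It was called lower under hippuristanol, at -1.58 (edgeR adjusted p = 0.0291), and in the naive table at -2.82 for eIF4A (edgeR adjusted p = 7.356e-09) and -2.66 for the GFP fusion (edgeR adjusted p = 2.446e-08). The T20 minus T0 difference of -1.52 ± 0.44 (SE) had an edgeR adjusted p of 0.6765. All 20 lower IDs together took 0.852% and 0.897% of the T20 pulldowns, against 4.69% and 3.74% of the T20 inputs.

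**Figure D3:**
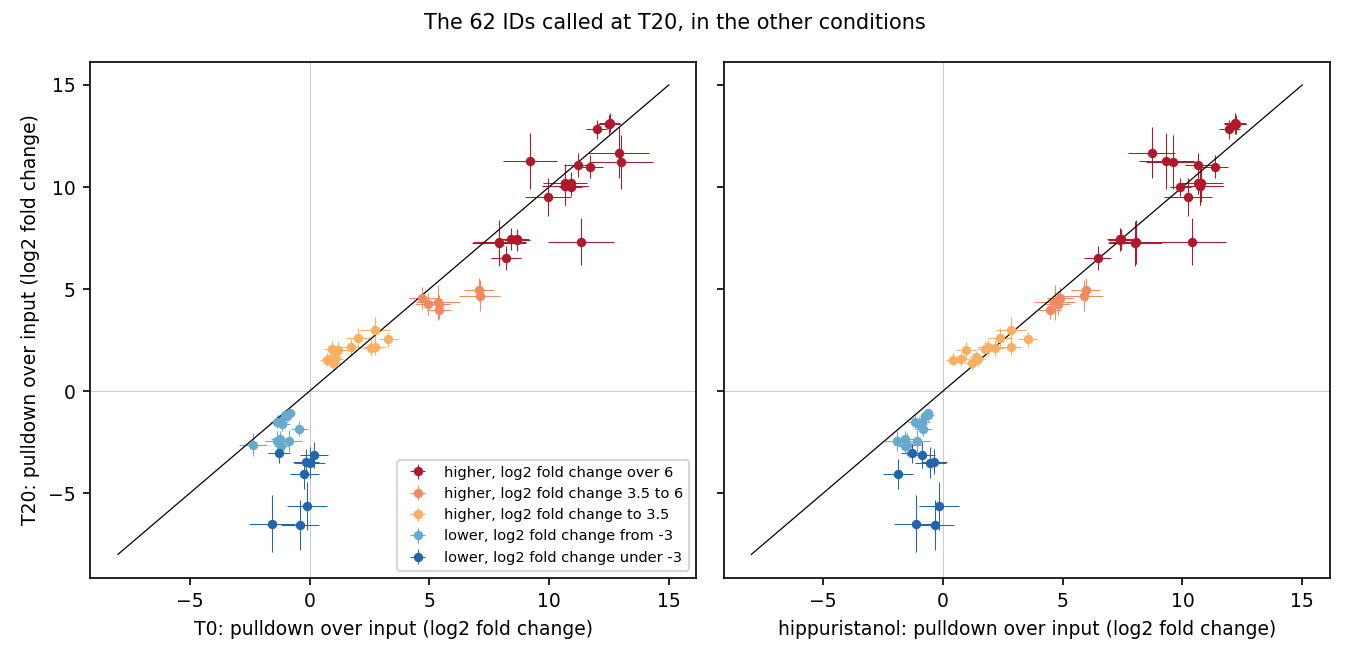
Pulldown over input at T20 (vertical axes, log2 fold change) against T0 (left panel) and hippuristanol (right panel) for the 62 IDs called at T20, with standard errors; the line marks equal values. The 8 IDs under -3 at T20 lie well below the line, with T0 values of -1.56 to 0.19. They were selected by their T20 values, so nothing is read from that position. In both panels 22 of 22 upper-band IDs are high.

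The test of the difference between conditions gave no call. For T20 minus T0, 0 IDs were called by edgeR (0%), 1226 had an unadjusted p under 0.05 (7.35%), 630 higher (3.78%) and 596 lower (3.57%), and DESeq2 called 103. For T20 minus hippuristanol, 0 were called by edgeR (0%), 809 had an unadjusted p under 0.05 (4.85%), 237 higher (1.42%) and 572 lower (3.43%), and DESeq2 called 2. On simulated counts the edgeR step recovered 0% of 4-fold and 3.33% of 8-fold changes for T20 minus T0, and 0% and 10.6% for T20 minus hippuristanol. For T20 pulldown over input the recovery was 0% at 2-fold, 7.94% at 4-fold and 28.1% at 8-fold. The changed IDs were drawn from low as well as high levels, with the same mean level and spread in pulldowns and inputs. Each comparison had a single run. Differences of those sizes were mostly not recovered under those settings, which do not speak for well-covered IDs alone.

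**Figure D4:**
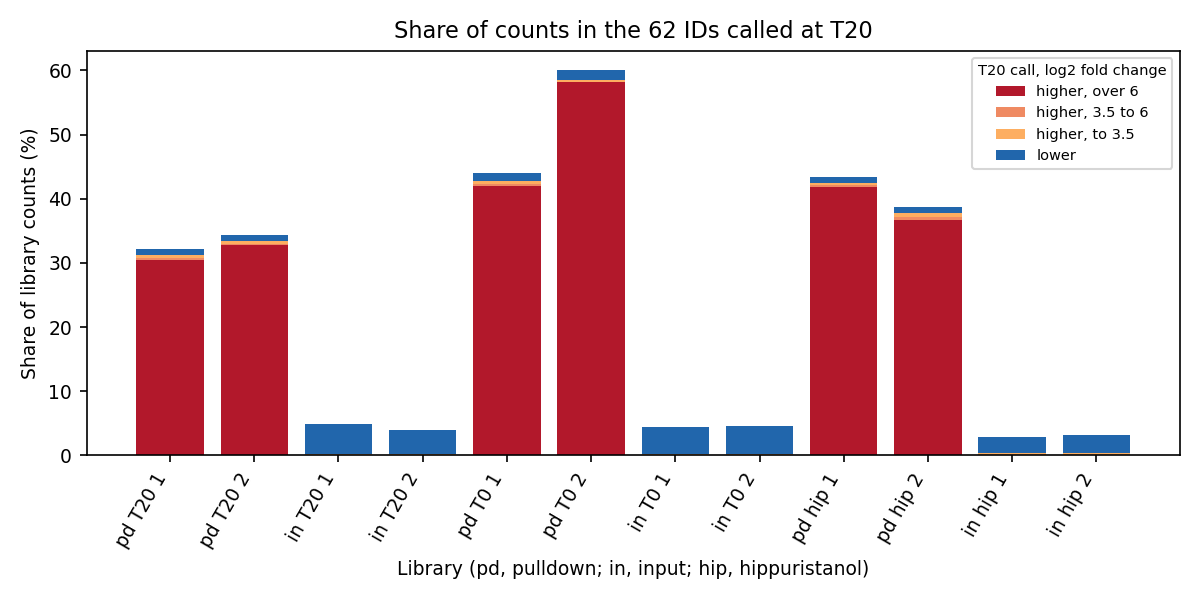
Share of library counts (vertical axis, percent) in the 62 IDs called at T20, stacked by band, for each T20, T0 and hippuristanol library. Pulldowns of each condition hold at least 30.5% in the upper band, and inputs hold 0.108% or less there.

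IDs that differed between T20 and T0 within a fraction were followed in the T20 pulldown over input. T20 inputs differed from T0 inputs in 7 IDs (0.042%), 3 higher (0.018%) and 4 lower (0.024%), and T20 pulldowns from T0 pulldowns in 24 (0.144%), 16 higher (0.0959%) and 8 lower (0.048%). The 3 IDs higher in T20 inputs, by log2 fold changes of 1.59 to 2.91, had T20 pulldown-over-input values of -1.16 to 0.80, with 0 called. Of the 16 IDs higher in T20 pulldowns, 1 was called higher over its T20 input, and their median T20 fold was 1.02. Of the 8 IDs lower in T20 pulldowns, 4 were called lower and 2 higher over the T20 input. These comparisons share the T20 libraries, so the values are not independent.

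The T20 pulldowns resembled each other less closely than the T20 inputs did. Across tested IDs, log2 CPM correlated at 0.613 between the T20 pulldowns and at 0.966 between the T20 inputs (Pearson; IDs are not independent replicates). An ID with at least 20 counts in 1 library and 0 in the other occurred 1035 times between the T20 pulldowns, against 9 times between the T20 inputs. The same number was 494 for T0 and 377 for hippuristanol pulldowns, from pairs of libraries with smaller totals. Over the 4369 IDs at a mean level of 5 log2 CPM or more, pulldown minus input correlated at 0.524 between the first and second T20 replicates, 0.364 at T0 and 0.579 under hippuristanol.

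Many IDs present in inputs had no count in the pulldowns, and more so at low level. Among 2773 IDs with a T20 input level under 2 log2 CPM, 41.4% had 0 counts in both T20 pulldowns. The share was 17.1% of 4951 IDs at 2 to 4, 2.79% of 3404 at 4 to 5 and 0.246% of 2850 at 5 to 6, and it was 0 of 1666 IDs at 6 to 7 and 0 of 1034 above. T0 gave 65.8%, 23.8%, 4.30% and 0.635% in the first 4 of these bins, and hippuristanol 50.3%, 7.10%, 0.452% and 0%, with bins set by each condition's own inputs. Pulldowns differed in depth, and its part in these shares was not tested. Of the 62 T20 calls, 21 lay among the 1034 IDs of the uppermost bin and 9 among the 2773 of the lowest. The bins between held 12, 5, 7 and 8 calls, from low to high level, and 0.372% of all tested IDs were called. In bulk RNA, fewer copies in every cell and copies in fewer cells cannot be told apart.

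IDs grouped by the separate libraries of unstressed APEX-eIF4A cells were set beside their T20 values. In the naive table, 144 of 12427 tested IDs were called higher in the eIF4A pulldown (1.16%) and 127 were called lower (1.02%). At T20 the 144 had a median log2 fold change of 0.51, with quartiles of 0.03 and 1.01, and 110 of them (76.4%) lay above 0. The median over all tested IDs was -0.29, with 40.9% above 0. Of the 144, 6 were called higher at T20 and 0 lower, beside 0.252% and 0.12% of all tested IDs. The medians were 0.50 and 0.54 in the first and second T20 pair, 0.26 at T0 and 0.15 under hippuristanol. Over all tested IDs the median was -0.55 at T0 and -0.36 under hippuristanol, so the 144 lay above that shift in each condition.

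The 127 IDs lower in the naive eIF4A pulldown went both ways at T20. Of the 126 tested, 14 were called higher at T20, from 2.53 to 11.69, and 5 were called lower, from -2.70 to -1.49. Over all tested IDs, 0.252% were called higher at T20 and 0.12% lower. The median of the 126 was -0.66, and 40 of 126 (31.7%) lay above 0. The upper band supplied 12 of the 14, and without it the median of the remaining 114 IDs was -0.83. IDs with no naive call had a median of -0.35 over 11903. Of the 17 IDs higher in the naive pulldowns of 5 of 5 constructs, 15 lay above 0 at T20, with a median of 0.63 and 3 called higher. Of the 43 IDs lower in 5 of 5, 10 lay above 0, with a median of -0.80, 4 called higher and 5 lower.

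**Figure D5:**
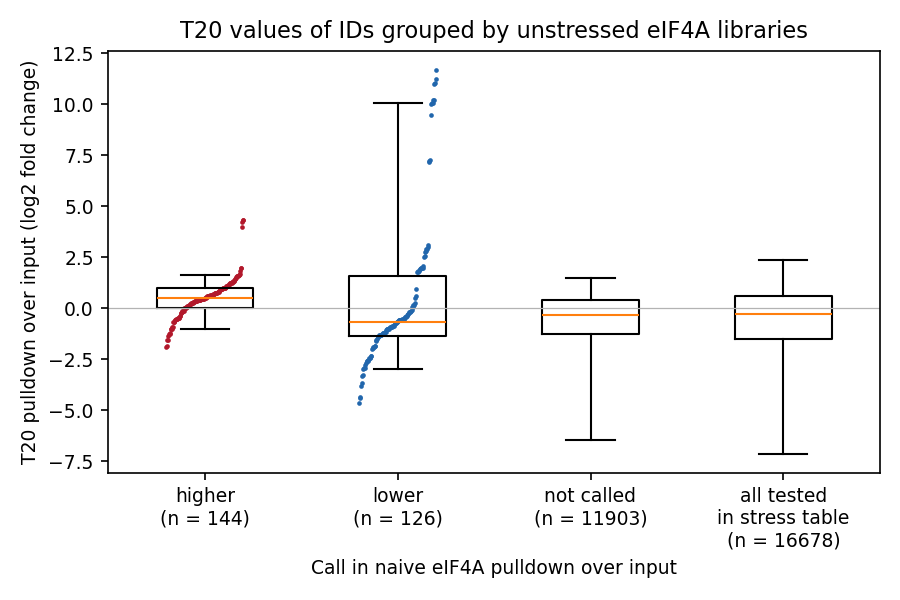
T20 pulldown over input (vertical axis, log2 fold change) for IDs grouped by their call in unstressed eIF4A libraries; boxes give quartiles and medians, whiskers the 5th to 95th percentiles, and points the single IDs of the first 2 groups. The 144 IDs called higher have a median of 0.51, and the 126 called lower split into a main body below 0 and a tail up to 11.69.

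The upper band was high over input at T20 and not over input in the naive eIF4A libraries. It was abundant in the pulldowns of both, and its share differed more between the inputs. Of its 22 IDs, 20 were tested in the naive table, where their eIF4A fold changes ran from -1.39 to -0.54, with 12 called lower and 0 higher. By plain share its naive pulldowns and inputs lay close together, and for ENSG00000277644.1 the naive direction turned with the scaling. The band took 30.5% and 32.7% of the T20 pulldowns and 0.069% and 0.063% of the T20 inputs, against 12.8% and 12.6% of naive eIF4A pulldowns and 13.9% and 13.8% of naive eIF4A inputs. The part of these differences in library make-up in the T20 folds was not tested. The middle band had naive eIF4A values of 0.05 to 1.42, with 3 of 7 called higher. Across 4359 of those better-measured IDs, T20 and naive eIF4A fold changes correlated at 0.212, and at 0.317 without the upper band. The naive GFP fusion gave 0.213 and 0.277, eIF4E 0.168 and 0.271, C1-APEX 0.215 and 0.275, and the chromatin protein CBX1 0.072 and 0.103. These values share the same T20 libraries, and IDs are not independent.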

How the data were processed

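The authors deposited unnormalised counts per Ensembl gene ID, made with cutadapt, HISAT2 and featureCounts on GRCh38, per the submitters' processing notes; tool versions, strand setting and the handling of multi-mapping reads: not given in the sources used here. Counts were used as deposited, and CPM values were computed from them. The stress and naive tables, with 17 and 20 libraries, were fitted separately in edgeR 4.0.16 (R 4.3.3): filterByExpr by group, TMM scaling, robust glmQLFit with 1 coefficient per group of libraries, and 2-sided glmQLFTest, with Benjamini-Hochberg adjustment over 16678 and 12427 IDs. Log2 CPM used a prior count of 2. Differences between conditions are differences of pulldown-over-input contrasts. The SE is the log2 fold change divided by the square root of F. DESeq2 1.42.0 was an alternative. Simulated counts were used to test the edgeR step.

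Groups and replicate numbers came from sample titles. Deviations of same-numbered pulldown and input correlated at -0.004 at T20, 0.085 at T0 and 0.126 under hippuristanol. With 2 libraries a side these values cannot settle whether same-numbered libraries are pairs. Pulldowns and inputs were not treated as paired in the main fit. No replicate pair held identical values.

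The comparison, the lists and the tests were chosen with earlier results of these data known. The reference gene table, for GRCh38.p14, lists no Ensembl identifiers. With 0 IDs matched, the 29 gene lists, the cell type markers and the check of heat-inducible chaperones could not be applied. By the rule for this case at most 2 higher and 2 lower IDs are named: of those called, at a mean level of 3 log2 CPM or more and without overlap of pulldowns and inputs, the one with the largest fold in each direction and the one with the highest counts outside the families, chosen after their values were seen.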

Additional observations from a re-analysis of the deposited data

Results flagged for a closer look

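ENSG00000277644.1 had a log2 fold change of 13.16 in T20 pulldown over input and of -0.59 in the naive eIF4A pulldown over input (edgeR adjusted p = 0.0866), with every naive pulldown below every naive input on the scaled level and every T20 pulldown above every T20 input. Its share was 4.70% and 5.02% of counts in T20 pulldowns and 0.000551% and 0.000703% in T20 inputs, beside 1.80% and 1.79% in naive eIF4A pulldowns and 1.58% and 1.52% in naive eIF4A inputs. By plain share the naive pulldowns were thus slightly above the naive inputs, so the direction in the naive table depends on scaling.

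ENSG00000210082.2 was opposite in the same way, at 9.999 at T20 and -1.15 in the naive eIF4A libraries (edgeR adjusted p = 8.821e-05). Its share was 3.24% and 2.77% in T20 pulldowns and 0.00346% and 0.00345% in T20 inputs, beside 2.29% and 2.57% in naive eIF4A pulldowns and 3.03% and 3.13% in naive eIF4A inputs. The tables were normalised separately, and the difference between T20 and naive values was not tested for either ID.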

How the results depend on the processing

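The 62 T20 calls became 730 with DESeq2 (286 higher, 444 lower), 306 with the replicate block (96 higher, 210 lower), 106 without a count filter (57 higher, 49 lower), 27 with only the libraries compared (24 higher, 3 lower) and 24 to 48 with 1 T20 library left out. Without both second T0 libraries, an alternative chosen after seeing the data, it was 83. The 60 T0 calls became 300 with DESeq2, 188 with library size in place of TMM (51 higher, 137 lower), 206 with the replicate block, 33 with only the libraries compared, 36 without both second T0 libraries and 37 to 55 with 1 library left out. T20 minus T0 gave 103 with DESeq2 (46 higher, 57 lower), 5 with the replicate block, 1 without a count filter and 0 to 0 with 1 library left out; T20 minus hippuristanol gave 2, 1, 0 and 0 to 0. Of the 22 upper-band IDs, 22 were called with DESeq2, library size, the replicate block or TMM without the 10 highest IDs, 20 without a count filter, 18 with only the libraries compared, and 15, 16, 22 and 22 without the first input, second input, first pulldown and second pulldown. Of the 8 IDs under -3, 0 to 2 were called with 1 T20 library left out, which leaves 1 library in a group. With only the libraries compared, 0 of these 8, 0 of the other 12 lower IDs and 0 of the 13 IDs of the lower band of higher IDs were called. The cause of the lost calls was not tested. ENSG00000277644.1 and ENSG00000210082.2 were called under all 11 alternatives. ENSG00000060749.13 was not called in 5 of 11 (highest adjusted p 0.2744), and ENSG00000202198.1 in 2 of 11, without a count filter and with only the libraries compared (highest adjusted p 0.143). No named ID changed sign. The median T20 value of the 144 IDs higher in naive eIF4A ran from 0.25 with library size to 0.69 with DESeq2, and that of the IDs lower there from -0.92 with library size to -0.43 without the first T20 input. Whether same-numbered libraries are pairs is not settled, so the replicate block is given as an alternative. Gene-list and chaperone alternatives were not run, since IDs have no symbols.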
